A study of Arabidopsis thaliana with 6 samples.

Results

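COR15A, COR15B, LTI30, COR27, DI21 and XERICO are 6 genes of the cold and abscisic acid responses of Arabidopsis thaliana. They were chosen by name from the probe annotation and, on their measured difference between A6 and wild type, because 3 of them were higher and 3 lower in A6. Each had 1 probe set, a group of short probes for 1 transcript, so the 6 genes correspond to 6 of the 22746 probe sets of the array that are not controls. The direction and size of the difference between A6 and wild type are therefore descriptions here. Calls of these genes in the test over all probe sets appear only as counts beside the share of all probe sets called, and support nothing.

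The study compared rosette leaves of line A6 with those of wild type, on 3 arrays each, one array per sample, and its labels call the samples of each line biological replicates. Leaves 3 to 6 came from plants aged 3 weeks, kept at 20 °C under 20 h of light and 4 h of dark, and both lines were grown alike as far as the labels say. Its title describes a plant deficient in N6-methylation of adenosine. A6 is known as a mutant of the mRNA adenosine methyltransferase MTA that carries MTA under the promoter of ABI3, a transcription factor of abscisic acid signalling that acts mainly in seeds. A6 is 1 line, so lower methylation, the mutation of MTA and the introduced ABI3 promoter cannot be told apart in its differences from wild type, and MTA itself is not analysed here. The labels name no treatment with cold or abscisic acid, so the values describe the genes at normal growth temperature.

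In the cold response, CBF transcription factors bind the promoters of COR (cold-regulated) genes and raise their transcription, which increases freezing tolerance. Abscisic acid, the hormone of drought and seed maturation, acts through receptors, phosphatases and kinases on bZIP factors that switch on many of the same protective genes. Products of these genes include late embryogenesis abundant (LEA) proteins and dehydrins, hydrophilic proteins that protect membranes and enzymes when cells lose water.

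All values are log2 units, and each probe set is centred on its median across all 6 arrays. A value of 0 is that median and not an absence of RNA, so levels cannot be set against each other between genes. In leaf tissue a lower value can come from fewer cells of a type or from less RNA per cell, and these cannot be told apart. The arrays differed in technical respects. The mean 3′ minus 5′ difference of 6 pairs of Arabidopsis control probe sets, a measure of RNA quality, lay between -0.033 and -0.021 in A6 and between 0.016 and 0.091 in wild type, so it separated the lines. The bacterial and phage control RNAs were highest on A6 replicate 3 (0.41) and wild-type replicate 1 (0.40) and ran from -0.37 to 0.019 on the other 4 arrays. Wild-type replicate 1 also stood apart in several LEA genes, which were picked out after their values were seen. AtLEA4-1 was at 2.89 on that array and between -0.083 and 0.0997 on the other 5, LEA4-5 was at 1.83 against -0.16 to 0.197, and the dehydrin gene LEA was at 1.82 against -0.24 to 0.059. The cause was not tested, and the values of the 6 genes without this array are given with the results.

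COR15A (AT2G42540) and COR15B (AT2G42530) encode closely related LEA proteins of the chloroplast stroma that stabilise membranes during freezing, and both are targets of the CBF factors. They lie next to each other on chromosome 2 in the RefSeq gene order. The centred log2 values of COR15A were 0.71, 0.75 and 1.33 on A6 replicates 1 to 3 and -0.71, -1.39 and -1.08 on wild-type replicates 1 to 3. All A6 values lay above all wild-type values, with a gap of 1.42 log2 units between the nearest arrays. The A6 mean was 0.93 ± 0.35 (SD, n = 3) and the wild-type mean -1.06 ± 0.34 (SD, n = 3), a difference of 1.99 (SE 0.22) or 3.98-fold.

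COR15B had the same direction and a smaller difference. Its values were 0.33, 0.43 and 0.97 on A6 replicates 1 to 3 and -0.34, -0.98 and -0.33 on wild-type replicates 1 to 3. Again the lines did not overlap, but the gap was narrower, at 0.65. The A6 mean was 0.58 ± 0.35 (SD, n = 3) and the wild-type mean -0.55 ± 0.37 (SD, n = 3), which gives a difference of 1.13 (SE 0.23) or 2.18-fold. Whether probes of one of these related genes also detect RNA of the other was not tested. COR15A held rank 131 and COR15B rank 417 among the differences of all probe sets when these were ordered from the largest rise, and 512 probe sets were at least 2-fold higher in A6.

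**Figure D1:**
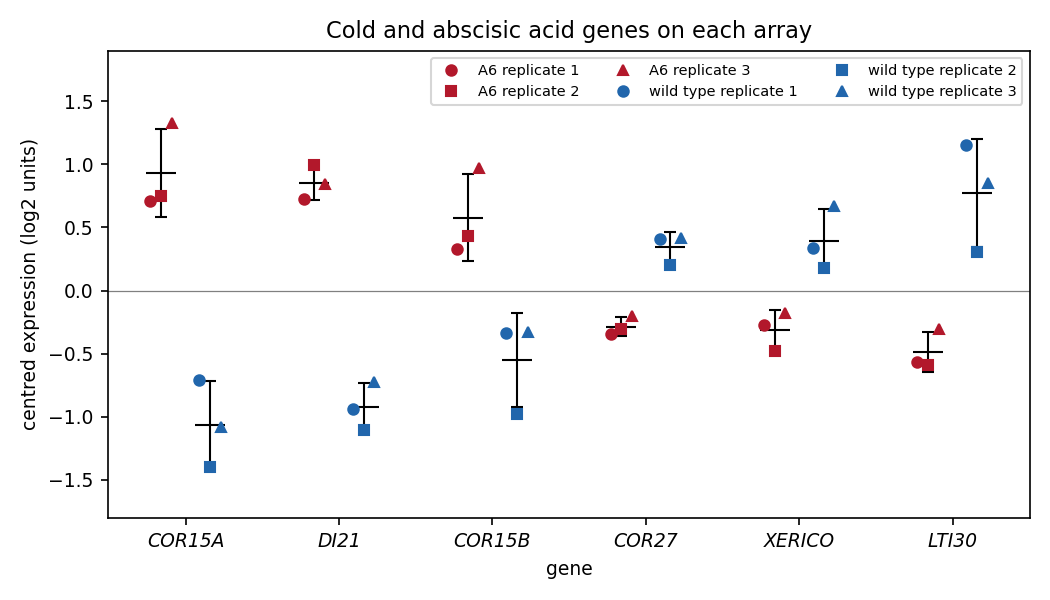
Centred expression in log2 units (vertical axis) of the 6 genes (horizontal axis) on each of the 3 A6 (red) and 3 wild-type (blue) arrays, with replicate numbers as symbols and the mean and SD of each line as black bars. COR15A, DI21 and COR15B lie above 0 in A6 and below 0 in wild type, and COR27, XERICO and LTI30 lie the other way round, with no overlap between lines.

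LTI30 (AT3G50970, also XERO2) encodes a dehydrin that is induced by low temperature and abscisic acid and binds membranes. It belongs with COR15A and COR15B among the protective proteins of the cold response, but it was lower in A6. Its values were -0.57, -0.59 and -0.31 on A6 replicates 1 to 3 and 1.16, 0.31 and 0.85 on wild-type replicates 1 to 3. Every wild-type array lay above every A6 array, and the wild-type values were the more scattered. Its A6 mean was -0.49 ± 0.16 (SD, n = 3) and its wild-type mean 0.77 ± 0.43 (SD, n = 3), a difference of -1.26 (SE 0.21), or 2.40-fold lower. The highest LTI30 value was that of wild-type replicate 1, the array with high LEA genes, and without that array the difference was -1.07.

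COR27 (AT5G42900) encodes a small regulatory protein that is induced by cold and by light signals and acts on clock and flowering genes. COR27 stood at -0.34, -0.31 and -0.20 on A6 replicates 1 to 3 and at 0.41, 0.20 and 0.41 on wild-type replicates 1 to 3. It had the smallest difference of the 6 genes and also the smallest spread within a line. Its A6 mean was -0.28 ± 0.074 (SD, n = 3) and its wild-type mean 0.34 ± 0.12 (SD, n = 3), and the difference was -0.63 (SE 0.11), or 1.54-fold lower. Its SD within lines, 0.10, was larger than that of only 21.0% of all probe sets, whereas the SDs of COR15A, COR15B and LTI30, 0.32 to 0.36, exceeded those of 92.0% to 94.5%.

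XERICO (AT2G04240) encodes a small RING-H2 zinc finger protein whose overproduction raises abscisic acid levels and drought tolerance, and whose gene is repressed by gibberellin. Values of XERICO were -0.27, -0.48 and -0.18 on A6 replicates 1 to 3 and 0.34, 0.18 and 0.67 on wild-type replicates 1 to 3. A6 was below wild type on all arrays, by 0.36 at the closest pair and by 1.15 at the most distant one. The A6 mean of -0.31 ± 0.15 (SD, n = 3) compares with a wild-type mean of 0.40 ± 0.25 (SD, n = 3), which is a difference of -0.70 (SE 0.15), or 1.63-fold lower.

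DI21 (AT4G15910) is named for its induction by drought. On A6 replicates 1 to 3 DI21 had values of 0.72, 0.996 and 0.85, and on wild-type replicates 1 to 3 it had -0.94, -1.10 and -0.72. The lines were further apart in DI21 than in any other of the 6 genes relative to their spread, with a gap of 1.45 and an SD within lines of 0.16. The A6 mean was 0.86 ± 0.14 (SD, n = 3) against -0.92 ± 0.19 (SD, n = 3) for wild type, so that DI21 was higher by 1.78 (SE 0.13) or 3.43-fold.

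In order of their difference, the genes ran from COR15A (1.99) through DI21 (1.78), COR15B (1.13), COR27 (-0.63) and XERICO (-0.70) to LTI30 (-1.26). COR15A and DI21 differed by less than 1 SE of COR15A, and COR27 and XERICO by less than 1 SE of either. All 6 genes had values that did not overlap between the lines, as did 29.0% of all probe sets. All 6 were also called by limma with an adjusted p under 0.05, at which 2222 of 22746 probe sets (9.77%) were called, 5.03% as higher and 4.74% as lower in A6. Because the same comparison chose the genes, nothing follows from these counts.

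Deviations from the line mean were not used in choosing the genes. On every array but wild-type replicate 1 they had the same sign in at least 5 of the 6 genes, including genes with opposite differences between the lines. Wild-type replicate 2 had the lowest of the 3 wild-type values in 6 of 6 genes, by 0.14 below the line mean in COR27 to 0.47 in LTI30, and that array was the lowest for 31.8% of all probe sets. A6 replicate 3 had the highest A6 value in 5 of 6 genes, DI21 being the exception, and it was the highest for 41.7% of all probe sets. So COR15A and LTI30, which lie on opposite sides of 0 in each line, were both raised on A6 replicate 3 (by 0.40 and 0.18) and both lowered on wild-type replicate 2 (by 0.33 and 0.47). XERICO deviated upward on A6 replicate 1 (0.039) and DI21 on A6 replicate 2 (0.14), where the other 5 genes were below 0. On wild-type replicate 3 only COR15A was below 0 (-0.020). Wild-type replicate 1 was the most mixed, with DI21 and XERICO slightly below 0 (-0.017 and -0.054) and the other 4 above. Over the 6 arrays, Pearson correlations of these deviations were positive in 15 of 15 pairs of the genes, from 0.22 (COR15A and DI21) to 0.98 (COR15B and COR27), with a median of 0.70. They are given as a description, since the deviations of a line sum to 0, the genes share the same 6 RNA samples, and array-wide effects enter all of them. Against all probe sets the median correlation of a gene was between 0.020 (DI21) and 0.12 (COR15A).

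**Figure D2:**
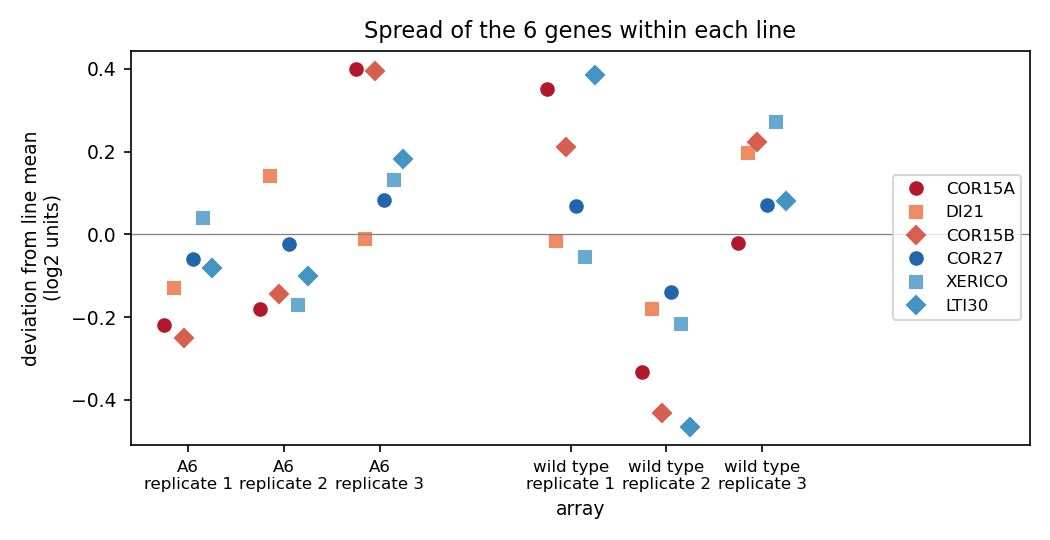
Deviation of each gene from its line mean in log2 units (vertical axis) on each array (horizontal axis), with red shades for the 3 genes higher in A6 and blue shades for the 3 lower ones. All 6 genes lie below 0 on wild-type replicate 2, and 5 of 6 lie above 0 on A6 replicate 3.

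Other genes of the pathway were taken from lists of loci for cold, abscisic acid, clock and gibberellin genes. Only 9 of 110 listed loci had a probe set with a name, and 101 are not analysed here, among them all of the CBF genes, the abscisic acid receptors, synthesis enzymes and most COR genes. Of the 9, 0 were called higher and 2 lower in A6, in the limma test over all probe sets. That test called 5.03% of all probe sets higher and 4.74% lower. The lists were drawn up from general knowledge of the pathways, with earlier results of these data known. Across all probe sets the median difference was -0.025 and 45.1% had higher values in A6.

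Of 2 measured cold-regulated and dehydrin genes 1 was lower in A6 and 1 did not pass. AT4G33980 has no name in the annotation and was listed as COR28 from general knowledge. It stood at -0.49, -0.42 and -0.24 on A6 replicates 1 to 3 and at 0.24, 0.83 and 0.84 on wild-type replicates 1 to 3. It fell by 1.02 (SE 0.17, limma adjusted p = 0.0111), and without A6 replicate 1 the difference was -0.97 (limma adjusted p = 0.0607). Under the 3′ minus 5′ covariate it was -1.68 (limma adjusted p = 0.0272). COR47, a dehydrin of the CBF regulon, had a difference of -0.43 (SE 0.18, limma adjusted p = 0.185). The only measured regulator of the cold response was STZ (ZAT10), a zinc finger repressor induced by cold and other stresses, with a difference of -0.66 (SE 0.29, limma adjusted p = 0.21). Without wild-type replicate 1 COR47 had -0.60 (limma adjusted p = 0.0262) and STZ -0.99 (limma adjusted p = 0.0113). Both also passed with array weights and without the 2 arrays of high control RNA. These settings called more of all probe sets, 3484, 4691 and 3465 in that order, against 2222 in the main test. Without wild-type replicate 3, where 1222 probe sets were called, the differences were smaller. They were -0.27 for COR47 (limma adjusted p = 0.433) and -0.37 for STZ (limma adjusted p = 0.469).

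Of the 2 measured drought and abscisic acid genes, 0 passed, and 0 had an unadjusted p under 0.05 in limma. LEA4-5, an LEA protein of drought tolerance, had a difference of -0.81 with an SE of 0.41 and was -0.25 without wild-type replicate 1. DI19, a zinc finger protein named for drought like DI21, had -0.020 (SE 0.15). A wider list was drawn after the annotation had been seen, from RefSeq names that mention cold, drought, dehydrins or late embryogenesis. It held 11 genes besides the 6, of which 0 passed, 1 had an unadjusted p under 0.05 in limma, and 9 were lower in A6 than in wild type; the median difference was -0.22. Of these 11, COR47, DI19 and LEA4-5 are the 3 that the other lists also hold. Without wild-type replicate 1 the median was -0.11, 8 were lower, and LEA went from -0.46 to 0.21, and with the 3′ minus 5′ covariate the median was 0.12 and 4 were lower. In it SRC2, a gene regulated by cold, had the largest positive value, 0.50 (SE 0.23, limma adjusted p = 0.24), and 0.25 without wild-type replicate 1.

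The clock gene GI (GIGANTEA), which peaks late in the day and takes part in freezing tolerance and flowering, was the only measured one of 14 listed clock genes. GI values were -0.27, -0.21 and -0.25 on A6 replicates 1 to 3 and 0.31, 0.21 and 0.44 on wild-type replicates 1 to 3. It fell by 0.56 (SE 0.10, limma adjusted p = 0.0137), a difference close to that of COR27. GI did not pass without A6 replicate 1, where its difference was -0.55 (limma adjusted p = 0.0733), or with the 3′ minus 5′ covariate, where it was -0.502 with an SE of 0.21 (limma adjusted p = 0.241). The labels give no hour of harvest.

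Gibberellin represses XERICO through its receptors of the GID1 family, which lead to the destruction of DELLA proteins. The 3 receptor genes were measured, and 0 passed. GID1B had a difference of 0.93 (SE 0.29, limma adjusted p = 0.0884), GID1C of -0.23 and GID1A of -0.074. With 1 array left out GID1B ranged from 0.67 without A6 replicate 2 (limma adjusted p = 0.234) to 1.21 without A6 replicate 3 (limma adjusted p = 0.0379), the only array whose removal let it pass.

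**Figure D3:**
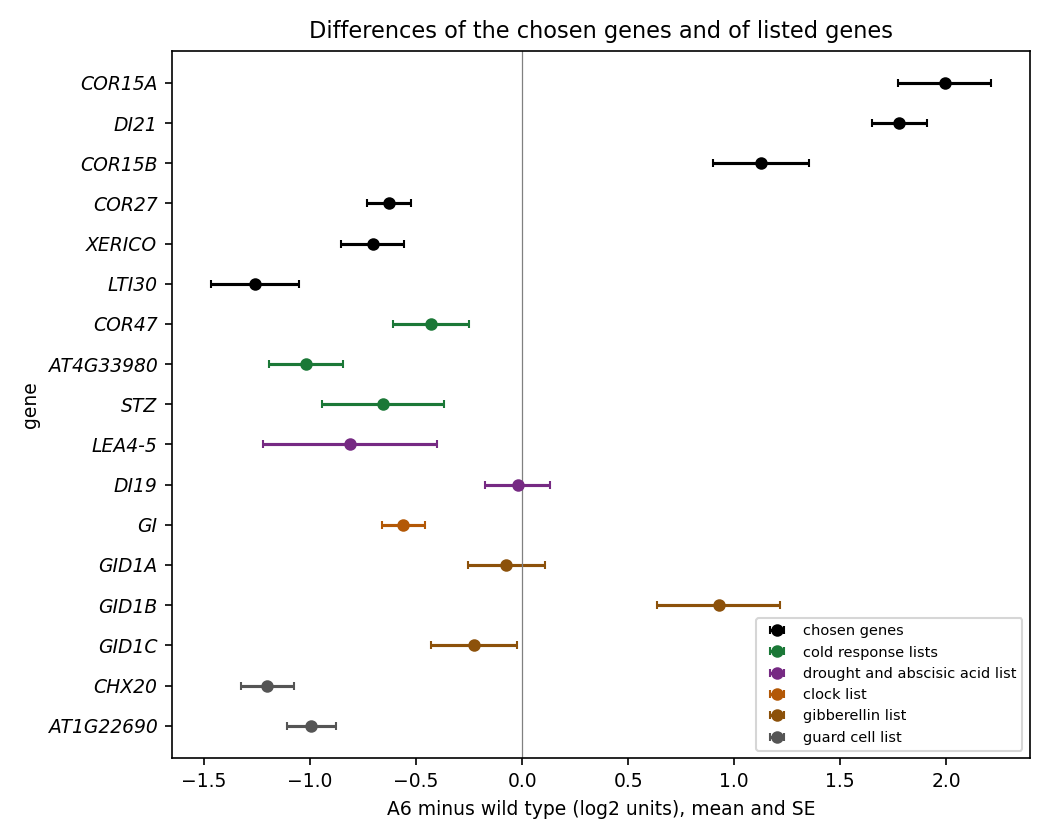
Difference between A6 and wild type in log2 units with its SE (horizontal axis) for the 6 chosen genes (black), the measured genes of the pathway lists (colours) and the guard cell list (grey), 3 arrays in each line. The 6 chosen genes spread from -1.26 to 1.99, and of the 9 listed pathway genes 8 lie below 0.

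Markers of cell types were measured for 8 of 30 listed loci. The leaf markers RCA, PSAN and SBPASE, which act in photosynthesis, had differences of 0.17, 0.32 and 0.35, and 0 of 3 passed. Their summed value was 0.17 to 0.34 in A6 and -1.04 to -0.295 in wild type. Taken singly, RCA and SBPASE overlapped between the lines and PSAN did not, as was so for 29.0% of all probe sets. Centred values cannot show whether a marker is present. The root markers PYK10, EXPA7 and EXPA18 had -0.12, -0.13 and -0.065, 0 of 3 passed, and their sums overlapped between the lines (-0.39 to 0.18 in A6, -0.11 to 0.58 in wild type). The 2 measured of 6 guard cell markers both fell. CHX20, a cation exchanger of guard cells, fell by 1.20 (SE 0.13, limma adjusted p = 0.00184). AT1G22690, listed as GC1 from general knowledge, fell by 0.99 (SE 0.11, limma adjusted p = 0.00252). Under the 3′ minus 5′ covariate AT1G22690 had -0.91 (limma adjusted p = 0.0994). The summed value of the 2 guard cell markers was -1.25 to -0.85 in A6 and 0.98 to 1.296 in wild type. Over all probe sets 4.74% were called lower and 29.0% did not overlap between the lines. Guard cells respond to abscisic acid, and the part of guard cells in the lower values of LTI30, COR27 and XERICO was not tested. Seed markers were not analysed here.

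Genes next to the 6 in the RefSeq order were examined where they had a named probe set. AT2G42520, beside COR15B, had a difference of -0.32 (SE 0.12, limma adjusted p = 0.138), so COR15A and COR15B were higher in A6 while the next measured gene was not. SWEET17, a fructose transporter of the vacuole whose gene lies beside DI21, had -0.22, -0.72 and -0.31 on A6 replicates 1 to 3 and 0.38, 0.22 and 0.45 on wild-type replicates 1 to 3. It fell by 0.77 (SE 0.15, limma adjusted p = 0.0168), opposite in direction to DI21, and lost its call when wild-type replicate 3 was left out, at -0.72 (limma adjusted p = 0.0605), and under the 3′ minus 5′ covariate, at -0.69 with an SE of 0.296 (limma adjusted p = 0.262). The genes directly beside LTI30, COR27 and XERICO are not analysed here.

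Among 1529 other genes with a symbol, the 2 whose values over the 6 arrays were most like those of each gene are named with their Pearson correlation. These correlations follow mainly from the difference between the lines. For COR15A they were UGT78D2, a flavonoid glycosyltransferase (0.99), and the defensin-like gene LCR69 (0.98), and for COR15B the MADS-box gene AGL23 (0.99) and CLE44, a signal peptide of the vasculature (0.96). For DI21 they were SAPX, an ascorbate peroxidase of the chloroplast stroma (0.99), and the pectin methylesterase gene PME61 (0.99). The genes lower in A6 shared some of theirs. FRA3, an inositol polyphosphate phosphatase, was among the nearest to both LTI30 (0.98) and COR27 (0.99), and MYBC1, a MYB-related transcription factor, among the nearest to both COR27 (0.99) and XERICO (0.97). The other named ones were the glutamate receptor-like gene GLR3.3 for LTI30 (0.99) and SP1L2 for XERICO (0.97).

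The 6 differences kept their direction in all alternative settings, but for most settings this was fixed in advance. As the lines did not overlap in these genes, leaving out or weighting arrays cannot turn a sign. The replicate block, the ordinary model and the averaging of probe sets leave the differences as they were. Only their size is therefore described. Leaving out 1 array at a time gave 1.79 to 2.17 for COR15A, 1.69 to 1.88 for DI21, 0.91 to 1.25 for COR15B, -0.697 to -0.59 for COR27, -0.81 to -0.57 for XERICO and -1.49 to -1.07 for LTI30. Without wild-type replicate 1 the values were 2.17 for COR15A, 1.77 for DI21, 1.23 for COR15B, -0.59 for COR27, -0.73 for XERICO and -1.07 for LTI30. The 3′ minus 5′ difference as a covariate moved 4 of the 6 by more than the SD within lines. COR15A then had 2.53 (SE 0.38) and COR15B 1.55 (SE 0.42), and LTI30 shrank to -0.54 (SE 0.29) and COR27 to -0.48 (SE 0.21). DI21 and XERICO had 1.88 and -0.67. Since this covariate separates the lines, its part in the differences and that of the line cannot be told apart.

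**Figure D4:**
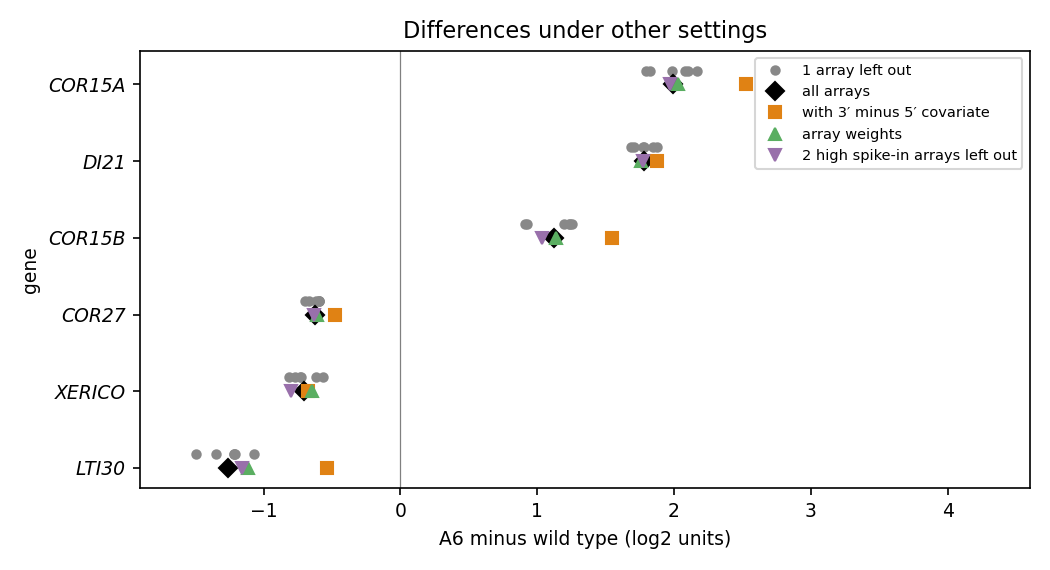
Difference between A6 and wild type in log2 units (horizontal axis) of the 6 genes (vertical axis) with all arrays (diamonds), with 1 array left out (grey dots), with the 3′ minus 5′ covariate (orange squares), with array weights (green triangles) and without the 2 arrays of high control RNA (purple triangles). All points of a gene lie on the same side of 0, which the lack of overlap between lines fixes for every setting shown but the covariate. LTI30 lies at -0.54 with the covariate against -1.26 with all arrays.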

How the data were processed

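The values are those deposited by the authors for Affymetrix ATH1 arrays of labelled total RNA, taken as log2. Per the submitters' processing notes they were made with RMA (background correction, quantile normalization and probe summary), and neither version nor log base is given in the sources used here. Each probe set had a median of 0 across the arrays, within 5e-07, so probe sets could not be filtered by brightness. Probe sets were named by the platform annotation, updated through RefSeq gene names of TAIR10.1, and 13513 paired with 1 gene.

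The 64 control probe sets were left out. A6 and wild type were compared with lmFit and eBayes of limma 3.58.1 (R 4.3.3), in a two-sided test with no term other than line. Benjamini-Hochberg adjustment covered 22746 probe sets, and the threshold was an adjusted p of 0.05. The procedure was tested on simulated data. Alternatives left out each array, added a replicate block, array weights or the 3′ minus 5′ covariate, dropped the moderation, shifted array medians to 0 or averaged probe sets of a gene. SEs are limma's. The number of arrays limits the precision. Named were the 6 genes, the called members of each list (otherwise up to 3 with the lowest p), the neighbours and the 2 most similar genes. Genes picked out after their values were seen are marked in the text. The 6 genes and the lists were chosen with earlier results of these data known.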

Additional observations from a re-analysis of the deposited data

How the results depend on the processing

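Of 2222 probe sets called, leaving out 1 array gave 766 (without A6 replicate 1) to 3484 (without wild-type replicate 1), with 993 when A6 replicate 2 was left out, 1103 for wild-type replicate 2 and 1222 for wild-type replicate 3. The count was 290 with the 3′ minus 5′ covariate, 229 with an ordinary linear model, 4691 with array weights and, in an alternative chosen after seeing the data, 3465 without the 2 arrays with high control RNA. The labels do not say whether equal replicate numbers pair samples of A6 and wild type. Same-numbered arrays deviated with correlations of -0.13, 0.18 and -0.16, and not every array correlated best with its own number. These correlations cannot decide it, since the deviations of each line sum to 0 over 3 arrays. With the replicate number as a block, 1526 probe sets were called. Of the 6 genes, 3 were called higher and 3 lower, beside 2222 of 22746 probe sets (9.77%). Leaving out 1 array gave 2 to 3 higher and 0 to 3 lower, beside 766 to 3484 probe sets. The 0 lower came without A6 replicate 1, the setting with 766. With the covariate, which called 290 probe sets, 2 were higher and 0 lower. The differences were then 2.53 for COR15A, 1.55 for COR15B, -0.54 for LTI30 and -0.48 for COR27. The ordinary model, which called 229 probe sets, gave 1 higher and 0 lower. Because the comparison itself chose the 6 genes, nothing follows from their counts.

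The counts of list calls stand beside totals of all probe sets called that also changed. Against 2222 in the main test, these were 4691 with array weights and 3465 without the 2 arrays. They were 290 with the covariate, 229 with the ordinary model and 766 to 3484 with 1 array left out. Calls of cold-regulated and dehydrin genes (1) numbered 2 with array weights and without the 2 arrays, 0 with the ordinary model and 0 to 2 with 1 array left out. Those of cold regulators (0) numbered 1 with array weights and without the 2 arrays, and 0 to 1 with 1 array left out. Clock calls (1) numbered 0 with the covariate and the ordinary model, and 0 to 1 with 1 array left out. Calls in the gibberellin list (0) numbered 1 with array weights and without the 2 arrays, and 0 to 1 with 1 array left out, as did those of the wider list of RefSeq names. The call in the wider list was that of COR47, which is also counted among the cold-regulated genes. Leaf marker calls (0) numbered 2 with array weights, 1 without the 2 arrays and 0 to 1 with 1 array left out. Guard cell calls (2) numbered 1 with the covariate and 0 with the ordinary model. Signs are given only for genes that were followed singly through the settings. In the wider list 9 genes were lower in the main test and 4 with the covariate, so further genes of it turned that are not named here. Among the genes followed, signs turned with the covariate for LEA (1.69), LEA4-5 (1.01), RCA (-0.064), EXPA7 (0.087), EXPA18 (0.028) and SRC2 (-0.21). With array weights they turned for LEA (0.018) and EXPA7 (0.0038). LEA also turned without the 2 arrays (0.23) and without wild-type replicate 1 (0.21). With 1 array left out, signs turned for DI19 (-0.17 to 0.11), GID1A (-0.29 to 0.096) and PYK10 (-0.22 to 0.062). In these 3 genes the positive values came without wild-type replicate 3 and, for DI19 (0.025), also without A6 replicate 3. The cause was not tested. Shifting each array to a median of 0, and averaging the probe sets of a gene, changed none of these counts by over 1.5 times. The ordinary model ended the calls of AT4G33980, GI, CHX20, AT1G22690 and SWEET17 (adjusted p 0.0536 to 0.122). The promoter motifs planned for counting were not run.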

Other observations

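Similarity within lines, over deviations from the line means, gave other neighbours than similarity of values. The nearest of 1529 genes were IAA31 and IKU1 for COR15A, LEP and NDB3 for COR15B, AARE and HRD for LTI30, UGT85A3 and SETH1 for COR27, RTH and TAC1 for DI21, and ATA27 and SPO11-2 for XERICO, with Pearson correlations over the 6 arrays from 0.97 to 0.9996. The differences of these 12 genes between A6 and wild type ran from -0.30 (RTH) to 0.11 (UGT85A3).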
